A study of Homo sapiens with 6 samples.

Results

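The labels name no osmotic treatment, and 8 genes known from the cellular response to osmotic stress were followed in LX-2. This immortalised human line derives from hepatic stellate cells, which in the liver store vitamin A and turn into matrix-producing myofibroblasts after injury. The genes were the transcription factor NFAT5, the kinase SGK1, the taurine transporter SLC6A6, the creatine transporter SLC6A8, the betaine transporter SLC6A12, the inositol transporter SLC5A3, the aldose reductase gene AKR1B1 and the neutral amino acid transporter SLC38A2. Members were all probe sets that the platform's annotation assigned to exactly 1 of these genes. This gave 23 of 44988 single-gene probe sets, for 7 genes, namely 5 for SLC6A6, 4 each for SGK1 and NFAT5, 3 each for SLC6A8, SLC6A12 and SLC38A2, and 1 for SLC5A3. AKR1B1 was not analysed here. The genes had been proposed with the differences between BMP9 and control in these data known, above all that of SLC6A6, so every member's difference below is a description and carries no test. Both groups were LX-2 cells starved of serum for 12 h. Recombinant human BMP9, the ligand encoded by GDF2, was then present for 24 h at 0 ng/ml in the 3 control samples and at 50 ng/ml in the 3 BMP9 samples. The labels call the samples of a group biological replicates and do not say how the cultures were separated, so the spread may be partly technical. The study has 1 cell line, 1 dose and 1 time, and each sample was read on 1 Affymetrix 3′ expression array.

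Cells in a hypertonic medium shrink, and they answer by taking up or making small organic osmolytes such as taurine, betaine, myo-inositol, creatine and sorbitol. NFAT5, also called TonEBP, is the main transcription factor of this answer and binds tonicity-responsive enhancers (TonE) near SLC6A6, SLC6A12, SLC5A3 and AKR1B1. SGK1 is a kinase induced by serum, glucocorticoids and cell shrinkage that promotes the activity of many transporters and channels. Liver cells are known to take up betaine, taurine and myo-inositol under hypertonic conditions.

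The deposited values are log2 expression values on a scale shared by the arrays. The median of each array lay between 3.55 and 3.57, and across probe sets Pearson's r ran from 0.992 to 0.994 for pairs of control arrays, from 0.993 to 0.994 for pairs of BMP9 arrays and from 0.990 to 0.993 for mixed pairs. The treatment check was positive. Of the 3 probe sets of SMAD6, an inhibitory SMAD induced by BMP signalling, the brightest went from 5.97 ± 0.17 to 8.99 ± 0.078 (SD, n = 3), and 2 of 3 probe sets of ID3 and 1 of 3 of ID1 passed the threshold defined below. The stellate cell and fibroblast markers held bright members, VIM at 11.62, COL1A1 at 9.73 and SPARC at 8.34 in control, while ACTA2 stood at 3.90 and LUM at 1.86. None of the 33 genes on 5 marker lists (stellate cells, hepatocytes, endothelial cells, macrophages and leukocytes, cholangiocytes) was called. The mean of the 10 stellate and fibroblast markers was 6.62 to 6.68 on the control arrays and 6.58 to 6.60 on the BMP9 arrays. Within that list VIM differed by -0.37 (limma adjusted p = 0.0786) and DCN, a matrix proteoglycan, by -0.74 (limma adjusted p = 0.194), both with every BMP9 array below every control array. Most of the list went the other way. SPARC, COL1A1, TIMP1, COL1A2, ACTA2 and LUM had positive differences, from 0.049 to 0.20, while DES and PDGFRB differed by -0.017 and -0.0038. In all of these the groups overlapped. The table has no detection calls, and the array's 23 background probe sets themselves ranged from 1.58 to 10.13. Every member value lies inside this range, so none is known from it to lie above background. The arrays' own control probe sets moved with the treatment. The mean of the 18 hybridisation controls was 10.12 to 10.20 on the control arrays and 9.87 to 10.04 on the BMP9 arrays, and that of the 24 poly-A controls was 6.09 to 6.22 and 5.39 to 5.83. In ACTB and GAPDH the 5′ probe set read higher than the 3′ one, so RNA integrity is not read from them. The 3′ minus 5′ difference of ACTB was -4.28 to -4.08 in control and -4.45 to -4.32 with BMP9. That of GAPDH was -1.39 to -1.19 and -1.55 to -1.34. The part of these shifts in the results below was not tested.

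Across the members, 6 probe sets were higher and 1 was lower with BMP9 at an adjusted p under 0.05 over all 49293 probe sets (limma, Benjamini-Hochberg), that is 30.4% of 23. The background was 0.410% of all probe sets, 0.134% higher and 0.276% lower, and since the list was drawn up with this contrast known nothing is read from the gap. The 6 higher ones were 3 of SGK1, 2 of SLC6A6 and 1 of SLC6A8, and the lower one was of NFAT5. These 7 probe sets are referred to as called. BMP9 and control arrays did not overlap in 11 of the 23 (8 above and 3 below), against 17.3% of all probe sets. The median difference of the 23 was 0.14 on the log2 scale, and that of all probe sets was 0.0078. Scaling to the hybridisation controls moved the median over all probe sets to 0.22. Then 12 members were called higher and 1 lower, and over all probe sets 10445 were called higher and 143 lower. With poly-A scaling, which moved it to 0.54, 20 members were called higher and 0 lower, and over all probe sets 45775 and 30. On the deposited scale the 49293 split into 66 higher and 136 lower. Unless a scaling is named, what follows uses the values as deposited and is relative to these shifts. As the samples are bulk RNA, fewer cells of a kind and less RNA per cell cannot be told apart.

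**Figure D1:**
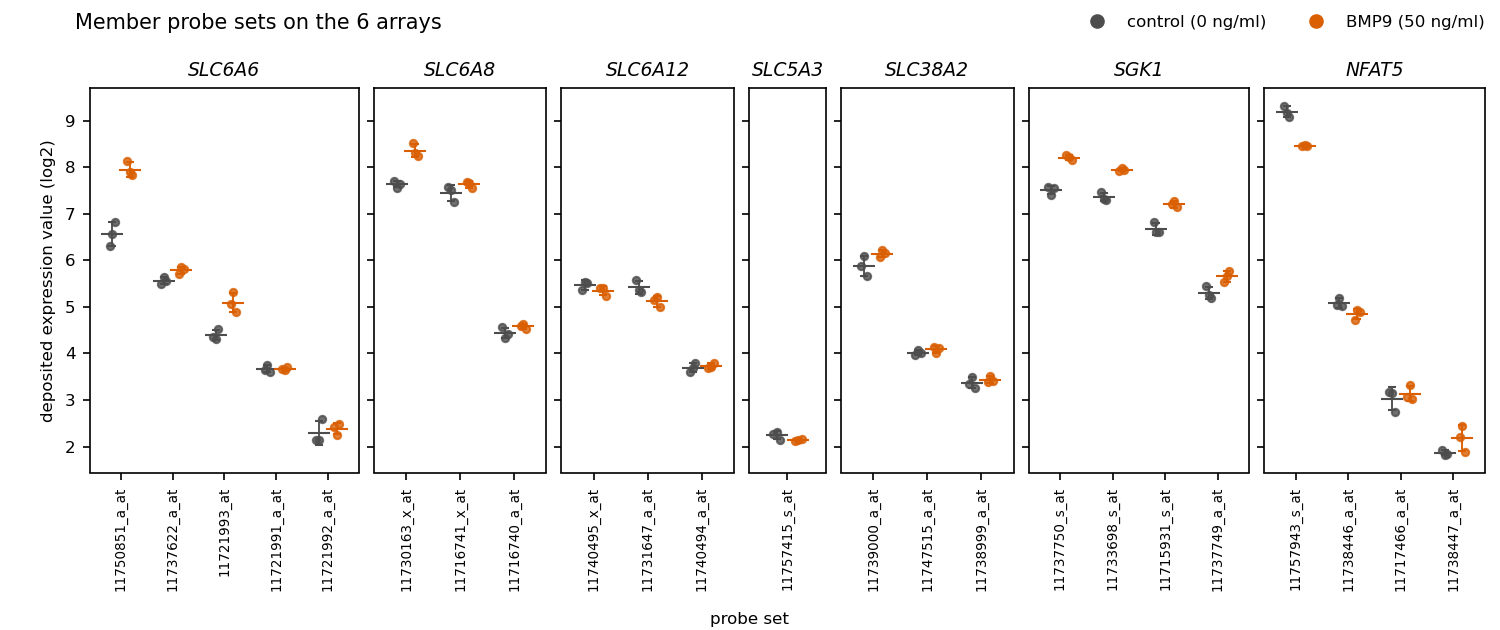
Deposited log2 expression value (y axis) of each of the 23 member probe sets (x axis, grouped by gene, brightest first) on the 3 control and 3 BMP9 arrays, with the mean and SD of each group. The brightest SLC6A6, SLC6A8 and SGK1 probe sets sit higher and the brightest NFAT5 probe set lower with BMP9, while no SLC6A12, SLC5A3 or SLC38A2 probe set was called and their differences lie between -0.30 and 0.26.

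SLC6A6 imports taurine together with sodium and chloride. Its brightest probe set, 11750851_a_at, read 6.31, 6.56 and 6.82 on the control arrays and 8.12, 7.90 and 7.83 on the BMP9 arrays. Every BMP9 value lay more than 1 unit above every control value. The means were 6.56 ± 0.26 and 7.95 ± 0.15 (SD, n = 3), a difference of 1.39 (SE 0.13, 95% interval 1.11 to 1.67), or 2.62-fold, and this was the only member probe set with a difference of at least 2-fold. It was called under all 15 alternatives that held it, with a difference of 1.26 to 1.52 when single arrays were left out. The 15 include the hybridisation and poly-A scalings, under which 10445 and 45775 of all probe sets were called higher, so these add little.

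The second called SLC6A6 probe set, 11721993_at, read 4.36, 4.31 and 4.53 in control and 5.05, 5.31 and 4.90 with BMP9. The groups again lay apart, with a difference of 0.69 (SE 0.11, 95% interval 0.44 to 0.93). This call was lost without control replicate 1 or 2, without BMP9 replicate 1 or 2, and with the replicate number as a block. Probe set 11737622_a_at read 5.49, 5.65 and 5.55 in control and 5.70, 5.86 and 5.81 with BMP9. Its difference of 0.22 (SE 0.082) was not called, although the groups did not overlap. In the remaining pair, at 3.67 and 2.29 in control, the differences were -0.00059 (positive with either control scaling) and 0.094, and the groups overlapped. The difference between the groups was not the same across SLC6A6 probe sets. The gap between the brightest probe set and 11737622_a_at was 0.81, 0.91 and 1.26 on the control arrays and 2.42, 2.04 and 2.02 on the BMP9 arrays. Averaging the 5 probe sets gave a difference of 0.48.

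SLC6A8 imports creatine, which serves as an energy buffer as well as an osmolyte. Probe set 11730163_x_at read 7.71, 7.56 and 7.65 on the control arrays and 8.51, 8.29 and 8.25 on the BMP9 arrays. The groups lay apart by more than the range within either, with a difference of 0.71 (SE 0.092, 95% interval 0.51 to 0.92), or 1.64-fold. The other 2 did not follow it. Probe set 11716741_x_at, of similar brightness, read 7.57, 7.51 and 7.25 in control and 7.68, 7.66 and 7.55 with BMP9, groups that overlap, with a difference of 0.18 (SE 0.098). Probe set 11716740_a_at had means of 4.44 ± 0.11 in control and 4.58 ± 0.056 with BMP9 (SD, n = 3), and differed by 0.14. Averaged over the 3 probe sets SLC6A8 differed by 0.35 and was no longer called. The gap between both _x_at probe sets was 0.14, 0.050 and 0.40 on the control arrays and 0.84, 0.63 and 0.70 on the BMP9 arrays. In Affymetrix names the ending _x_at marks probe sets with probes that also match other sequences, and the genome holds near-identical pseudogene copies of SLC6A8, so which transcripts gave the larger difference is uncertain.

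SLC6A12, the betaine transporter and a classical NFAT5 target, was measured by 3 probe sets and none was called. Probe set 11731647_a_at read 5.58, 5.36 and 5.31 in control and 5.16, 5.20 and 4.99 with BMP9. Here the BMP9 arrays all lay below the control arrays, by 0.30 on average (SE 0.097), a difference that became 0.23 with poly-A scaling. The brightest, 11740495_x_at, differed by -0.12 and overlapped between the groups, and it turned positive with both control scalings. Probe set 11740494_a_at differed by 0.034. The 95% intervals of these 3 differences together span -0.52 to 0.21.

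SLC5A3, which imports myo-inositol, had a single probe set that read 2.27, 2.32 and 2.15 in control and 2.12, 2.14 and 2.17 with BMP9. The groups overlapped and the difference was -0.11 (SE 0.080), positive with both control scalings. At this level the probe set is not known to be above background, so the data say little about SLC5A3.

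SLC38A2, also called SNAT2, carries neutral amino acids and is induced both by hypertonic medium and by amino acid starvation. Its brightest probe set, 11739000_a_at, read 5.88, 6.10 and 5.67 in control and 6.06, 6.22 and 6.16 with BMP9. Only control replicate 2 lay inside the BMP9 range, and the difference was 0.26 (SE 0.11, 95% interval 0.020 to 0.50), or 0.15 without control replicate 3. The other 2 probe sets differed by 0.075 and 0.068, with groups that overlap, and no SLC38A2 probe set was called.

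SGK1 was higher on every BMP9 array than on every control array in all 4 of its probe sets. Probe set 11737750_s_at read 7.57, 7.41 and 7.54 in control and 8.25, 8.21 and 8.15 with BMP9, a difference of 0.70 (SE 0.081, 95% interval 0.52 to 0.88), or 1.62-fold. Probe set 11733698_s_at read 7.46, 7.32 and 7.29 in control and 7.92, 7.98 and 7.93 with BMP9, a difference of 0.59 (SE 0.080). Probe set 11715931_s_at read 6.82, 6.60 and 6.61 in control and 7.21, 7.28 and 7.13 with BMP9, a difference of 0.53 (SE 0.089). These 3 probe sets were all called. The fourth, 11737749_a_at, read 5.44, 5.25 and 5.19 in control and 5.54, 5.66 and 5.76 with BMP9, apart as well, and its difference of 0.36 (SE 0.095) was not called. Averaged over its 4 probe sets SGK1 differed by 0.54. The call of 11733698_s_at was lost without BMP9 replicate 2 or 3. That of 11715931_s_at was lost with the replicate number as a block and without any single array other than control replicate 1. The ending _s_at marks probe sets whose probes match several transcripts, and the 4 probe sets may read overlapping stretches of the same messages, so they are not independent measurements.

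NFAT5 itself went the other way in its brightest probe set. Probe set 11757943_s_at read 9.32, 9.16 and 9.08 in control and 8.46, 8.46 and 8.46 with BMP9. The BMP9 arrays were nearly identical and all lay below the control arrays, with means of 9.19 ± 0.12 and 8.46 ± 0.0029 (SD, n = 3). The difference was -0.73 (SE 0.084, 95% interval -0.91 to -0.54), -0.52 with hybridisation scaling and -0.20, no longer called, with poly-A scaling. Probe set 11738446_a_at read 5.05, 5.20 and 5.01 in control and 4.71, 4.93 and 4.89 with BMP9. It was also lower on every BMP9 array, by 0.24 on average (SE 0.090), was not called, and became 0.29 with poly-A scaling. The dimmest pair did not fall. Probe set 11717466_a_at went from 3.03 ± 0.24 to 3.14 ± 0.16 and 11738447_a_at from 1.87 ± 0.049 to 2.18 ± 0.28 (SD, n = 3), with groups that overlap. Averaged over the 4 probe sets the NFAT5 difference was -0.14.

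**Figure D2:**
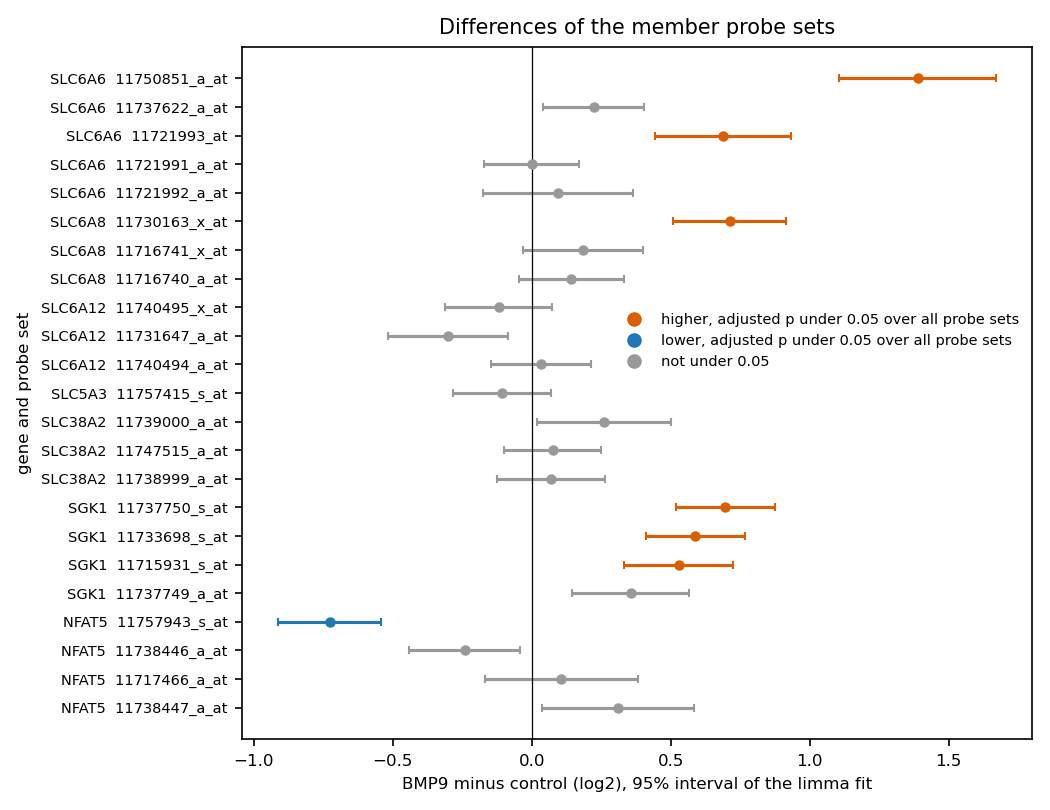
Difference between BMP9 and control (x axis, log2, with the 95% interval of the limma fit, n = 3 arrays per group) for each member probe set (y axis). The coloured points are the 6 probe sets of SLC6A6, SLC6A8 and SGK1 called higher and the 1 of NFAT5 called lower; the members run from -0.73 to 1.39.

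The names of the called probe sets bear on how firmly a gene can be assigned. Of the 7 called, 5 end in _s_at or _x_at. Among all 49293 probe sets, 34921 have other endings, and nothing is read from this comparison. Leaving out all such probe sets left 2 member calls, both of SLC6A6, and the brightest probe set that remained for SGK1 differed by 0.36, for SLC6A8 by 0.14 and for NFAT5 by -0.24.

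**Figure D3:**
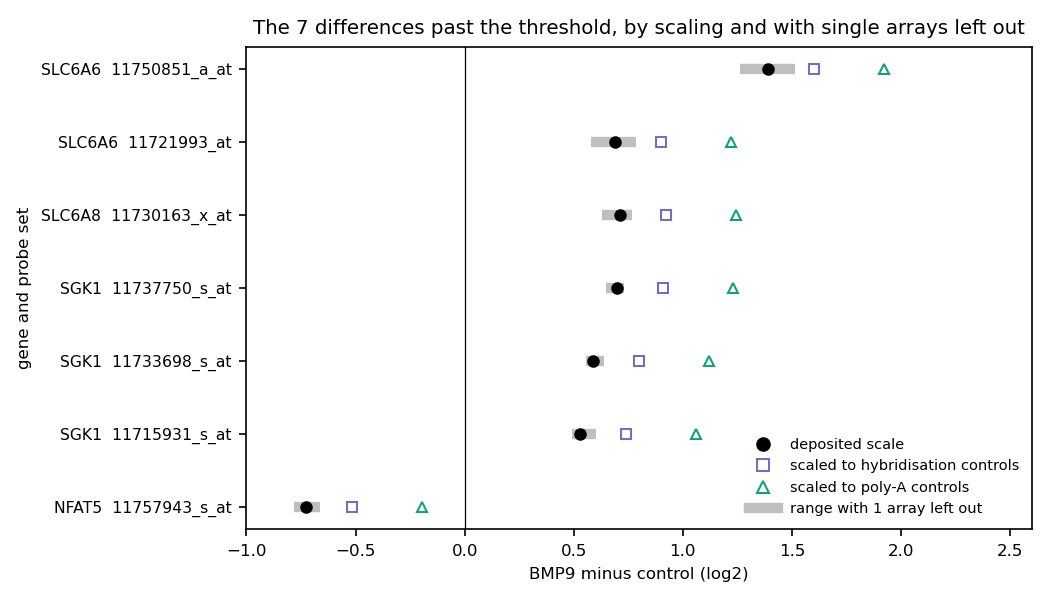
Difference between BMP9 and control (x axis, log2) of the 7 called member probe sets (y axis) on the deposited scale (black), after scaling each array to its hybridisation controls (squares) or poly-A controls (triangles), and the range when 1 array is left out (grey bars). The SLC6A6, SLC6A8 and SGK1 differences are positive in all settings shown, and that of NFAT5 is negative in all of them, at -0.20 with poly-A scaling. Both scalings raise every difference, so only the NFAT5 one could have changed sign with them.

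Promoter sequence was at hand for 5 of the 8 genes, as RefSeq windows on GRCh38.p14, and not for SLC6A6, SLC6A12 or NFAT5. The 250 bases before each start were searched on both strands. SGK1 and SLC6A8 are shown because they had called probe sets, and SLC38A2 because it was the only measured member whose window held a searched motif. The SGK1 window lies at chr6:134174867-134175116 on the minus strand and is the most GC-rich of the 3 starts listed for this gene. The SLC6A8 window lies at chrX:153687676-153687925 on the plus strand and the SLC38A2 window at chr12:46372774-46373023 on the minus strand. Capitals mark GGCGCC, a GC-rich element bound by SMAD1/5.
SLC6A8: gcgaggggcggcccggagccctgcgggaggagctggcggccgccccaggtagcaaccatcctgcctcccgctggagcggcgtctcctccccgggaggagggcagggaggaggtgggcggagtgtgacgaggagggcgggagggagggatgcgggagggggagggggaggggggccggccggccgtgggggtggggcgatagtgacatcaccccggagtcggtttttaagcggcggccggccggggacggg
SLC38A2: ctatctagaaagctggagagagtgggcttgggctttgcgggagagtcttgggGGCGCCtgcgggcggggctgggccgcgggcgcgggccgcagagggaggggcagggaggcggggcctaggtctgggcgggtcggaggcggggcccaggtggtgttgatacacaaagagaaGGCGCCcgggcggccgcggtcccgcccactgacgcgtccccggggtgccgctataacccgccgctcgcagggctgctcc
SGK1: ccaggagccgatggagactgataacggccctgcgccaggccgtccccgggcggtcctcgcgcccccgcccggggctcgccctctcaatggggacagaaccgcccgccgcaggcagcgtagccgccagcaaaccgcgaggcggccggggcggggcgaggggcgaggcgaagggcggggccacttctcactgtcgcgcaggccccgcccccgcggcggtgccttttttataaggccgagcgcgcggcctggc

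The SLC38A2 window held GGCGCC at 198 and 79 bases before the start, a motif present in 16.4% of 34943 promoter windows of this length. The windows of SGK1 (all 3 starts), SLC6A8 and SLC5A3 held none of the letters searched. These were GGCGCC, the SMAD element GTCTAGAC (0.183% of windows), the TonE core TGGAAA (18.0%), the whole TonE (4.17%, which contains the core), the amino acid response core TGATGNAA (3.15%) and the palindromic glucocorticoid element (1 window in all). The GC content of the windows was 76.0% for this SGK1 start, 41.6% and 33.6% for the other SGK1 starts, 76.4% for SLC6A8 and 73.6% for SLC38A2. A match is a description of letters, and the absence of one says only that these letters are not in this window.

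The other genes of the same pathways, 127 on 9 lists, were read from the brightest probe set of each gene, which gave 118 measured genes. A difference seen only in a dimmer probe set is not counted this way, unlike for the members. In ID1, for example, the brightest probe set differed by 0.14 and was not called, while a dimmer one differed by 3.21. By limma over 18132 genes, of which 0.684% were called (0.232% higher and 0.452% lower), 0 of the 118 were higher and 1 was lower with BMP9. Their median difference was 0.030, beside 0.014 over all genes. Of the 118, 70 had a positive difference, beside 54.7% of all genes.

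The called gene was PPP3CA, which encodes a catalytic subunit of calcineurin, the phosphatase that activates the NFATC factors. It read 9.39, 9.36 and 9.25 in control and 8.92, 8.85 and 8.92 with BMP9, every BMP9 array below every control array. The difference was -0.44 (SE 0.075, limma adjusted p = 0.0309), and 3 of its 4 probe sets passed when each was tested on its own. Over its alternatives the limma adjusted p ranged from 9.00e-04 to 0.571, and the call was lost whichever single array was left out (0.0536 to 0.142) and with the replicate block (0.0746). The difference was -0.22 with hybridisation scaling (limma adjusted p = 0.0879) and turned positive, 0.096, with poly-A scaling. None of the other 10 measured genes of the NFAT list was called, with differences of 0.18 for the kinase gene FYN and -0.17 for ATM, which turned positive with both control scalings.

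Among 14 measured genes around SGK1, 0 were called in either direction. RICTOR, the defining subunit of the mTORC2 complex that phosphorylates SGK1, read 7.10, 7.01 and 6.76 in control and 6.39, 6.62 and 6.32 with BMP9, groups that do not overlap. Its difference of -0.51 did not pass (SE 0.11, limma adjusted p = 0.0766), was called only with a minimum mean of 5 and with an intensity trend (limma adjusted p 0.0176 to 0.912 over all alternatives), turned positive at 0.019 with poly-A scaling and was 0.046 in the probe set chosen without _s_at and _x_at ones. The ubiquitin ligase gene NEDD4 differed by -0.19 and the mTOR subunit gene MLST8 by -0.15, and both turned positive with either control scaling. Among 11 genes of the glucocorticoid receptor and its induced genes, a list without SGK1, 0 were called. HSD11B2, which inactivates cortisol, differed by 0.32 (SE 0.072, limma adjusted p = 0.0902), the glucocorticoid-induced factor KLF9 by 0.31 (SE 0.083, limma adjusted p = 0.155) and the receptor co-chaperone FKBP4 by -0.21. The FKBP4 difference was positive with both control scalings and with the mean over probe sets (0.0044). Without control replicate 3 it was 0.11, but there the brightest probe set was chosen again on the remaining arrays. The probe set described here read 6.90 and 6.91 on control replicates 1 and 2 and 6.68 to 6.82 with BMP9. The 0.11 is therefore that of another FKBP4 probe set.

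Of 14 other NFAT5 targets and tonicity genes 0 were called, with 7 differences in each direction. VEGFC differed by -0.20 (positive with both control scalings), the heat shock gene HSPA1B by 0.24 and the second inositol transporter SLC5A11 by 0.23, limma adjusted p 0.341 to 0.390. Both group means of VEGFC were under 3. Of 16 genes of osmolyte synthesis and breakdown 0 were called. The betaine-consuming enzyme gene BHMT differed by 0.32 and the creatine kinase gene CKMT2 by 0.27, both with group means under 3, and CSAD, an enzyme of taurine synthesis, by -0.19 (positive with both control scalings). A list of other solute transporters gave 0 calls among 4 measured genes, with 0.21 for SLC2A13, 0.14 for SLC36A1 and 0.13 for the carnitine transporter SLC22A5.

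The remaining SLC6 family, 15 measured genes that carry neurotransmitters and amino acids, also had 0 calls and differences between -0.086 and 0.22. SLC6A5 differed by 0.22, SLC6A4 by 0.12 and SLC6A11 by -0.086, the last positive with both control scalings. Among 15 cell volume channels and ion transporters 0 were called, and the volume-regulated anion channel subunits LRRC8C and LRRC8B differed by 0.17 and 0.23 and the swelling-related gene CLNS1A by 0.16. LRRC8B and CLNS1A had group means under 3. Among 18 genes of neutral amino acid transport and the ATF4 response 0 were called. A positive difference was seen in 13, beside 54.7% of all genes. The large amino acid transporter gene SLC7A5 differed by 0.24 (SE 0.072, limma adjusted p = 0.202), its partner SLC3A2 by 0.17 and CHAC1 by 0.24, and in each of these the groups did not overlap. With no _s_at or _x_at probe sets SLC7A5 stood at -0.050.

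**Figure D4:**
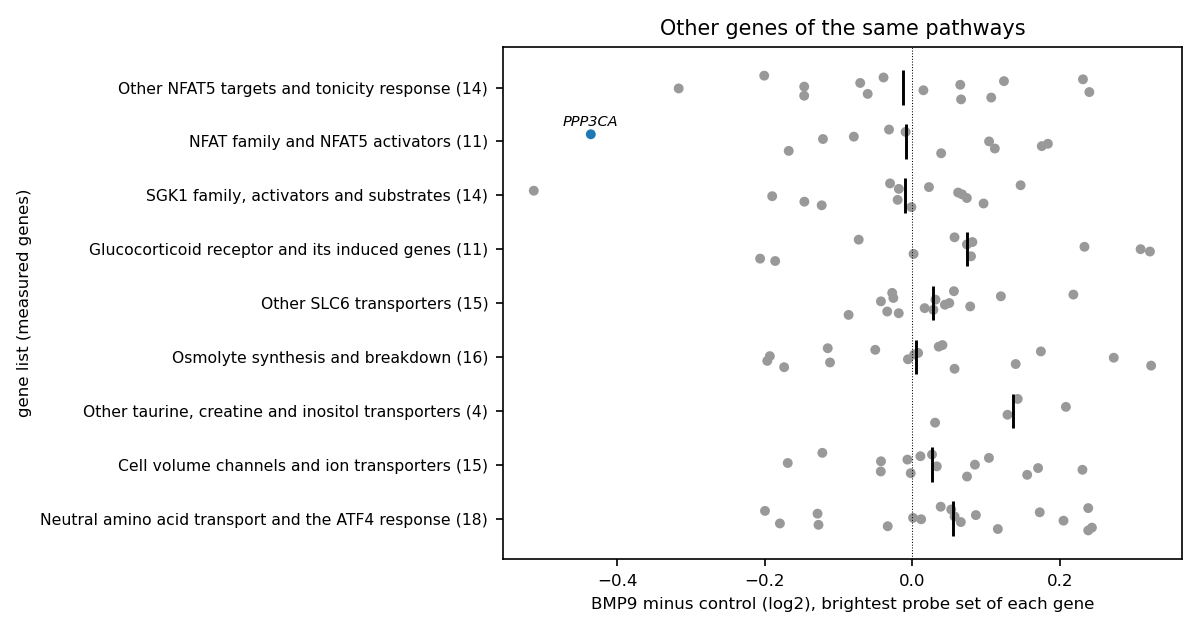
Difference between BMP9 and control (x axis, log2) of each measured gene, by its brightest probe set, in 9 lists of related genes (y axis, number measured in brackets), with the median of each list as a bar. Only PPP3CA is coloured, as the 1 of 118 genes called, at -0.44, and the list medians lie between -0.012 and 0.14.

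The genes whose profile over the 6 arrays was most like that of the brightest SLC6A6 probe set were CUX1, LRRC4C and CCN1. The root mean square distance between mean-centred log2 values was 0.10 for CUX1, 0.22 for LRRC4C and 0.22 for CCN1. CUX1 read 7.52, 7.67 and 7.72 in control and 9.16, 9.04 and 8.97 with BMP9. As in SLC6A6, control replicate 1 was the lowest and BMP9 replicate 1 the highest of its group, and the likeness is mostly that of the difference between the groups.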

How the data were processed

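The authors deposited 1 log2 value for each probe set and array, from RMA per the submitters' processing notes. The sources used here give neither the RMA version nor its settings, and the log base was taken from the range of the values. RMA equalises the distributions of the arrays and so takes out most of any shift common to all transcripts. Of 49395 probe sets, 102 array controls were left out, and 49293 were compared in limma 3.58.1 (R 4.3.3; lmFit and eBayes, no covariate) with Benjamini-Hochberg adjustment and a threshold of 0.05. The limma fit was tested on data simulated with independent normal noise, which checks the code and not the calls made here. For the pathway lists a second fit represented each of 18132 genes by its brightest single-gene probe set. Symbols came from the platform annotation. Probe sets with several symbols (1832) or none (2473) name no gene. No filter on dim values was applied, and the number of arrays limits the precision. A positive difference means higher with BMP9, and standard errors are limma's moderated ones. Members and lists were chosen with earlier results of these data known. Every member is described, and from each list the called genes and the 3 with the smallest p are named. The 3 profiles nearest SLC6A6 were taken by root mean square distance. Alternatives were the replicate number as a block, 4 other scalings, a minimum mean of 5, 2 ways to join or choose probe sets, no _s_at or _x_at probe sets, an intensity trend with a robust prior, and each array left out. Figures used matplotlib 3.10.9.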

Additional observations from a re-analysis of the deposited data

Results flagged for a closer look

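A probe set outside the member comparison, 11730162_s_at, carries the symbols SLC6A8, SLC6A10P and SLC6A10PB together and was therefore assigned to no gene. It read 7.68, 7.37 and 7.58 on the control arrays and 8.38, 8.28 and 8.26 on the BMP9 arrays, all above control, a difference of 0.76 (SE 0.094) that was called over all probe sets. Its difference lay close to the 0.71 of the called SLC6A8 probe set 11730163_x_at and not to the 0.18 and 0.14 of the other SLC6A8 probe sets; which of the transcripts it reads was not tested.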

How the results depend on the processing

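Against 66 probe sets called higher and 136 lower, the numbers were 10445 and 143 with hybridisation control scaling, 45775 and 30 with poly-A control scaling, 181 and 268 with a mean log2 value of at least 5 (11438 tested), 42 and 82 with the brightest probe set of each gene, 32 and 55 with the mean over probe sets, 43 and 93 without _s_at and _x_at probe sets, 153 and 276 with an intensity trend and robust prior, and 31 to 42 and 57 to 97 with 1 array left out. Against 6 members higher and 1 lower, they were 12 and 1, and 20 and 0, with the control scalings, 3 and 1 with the brightest probe sets, 2 and 0 with the mean, 2 and 0 without _s_at and _x_at probe sets, and 3 to 5 and 1 with 1 array left out, 3 being without BMP9 replicate 2. Against 42 genes higher and 82 lower, they were 4843 and 72 with hybridisation and 16893 and 19 with poly-A scaling, 102 and 165 with the minimum mean, 32 and 55 with the mean over probe sets, 32 and 78 without _s_at and _x_at probe sets, 103 and 182 with the trend, and 17 to 23 and 35 to 52 with 1 array left out. The scalings add a constant to every difference, and the other causes were not tested. With the replicate block, 44 probe sets were higher and 116 lower, 27 genes higher and 67 lower, and 4 members higher and 1 lower, SLC6A6 11721993_at and SGK1 11715931_s_at losing their calls. Deviations from the group means correlated at -0.0017, 0.034 and -0.023 for same-numbered arrays, and from -0.058 to 0.055 for the other pairs. With so few arrays these values cannot decide whether same-numbered cultures were paired.

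No called member changed sign. Both control scalings raise every difference, so only the lower NFAT5 probe set could have turned with them. In all called members the groups lie apart, so leaving out 1 array could turn none. Among the pathway genes named, signs turned with hybridisation scaling in VEGFC (0.011), ATM (0.044), NEDD4 (0.022), MLST8 (0.065), FKBP4 (0.0052), SLC6A11 (0.13) and CSAD (0.018). With poly-A scaling they turned in VEGFC (0.33), PPP3CA (0.096), ATM (0.36), RICTOR (0.019), NEDD4 (0.34), MLST8 (0.39), FKBP4 (0.33), SLC6A11 (0.45) and CSAD (0.34). Without _s_at and _x_at probe sets they turned in RICTOR (0.046), MLST8 (0.048) and SLC7A5 (-0.050). FKBP4 turned with the mean over probe sets (0.0044). Its differences were -0.25 to 0.11 when 1 array was left out, with the brightest probe set chosen again each time. The positive value, without control replicate 3, is that of another FKBP4 probe set. Dim probe sets, 7 of 23 members with a control mean under 4, limit what can be said of SLC5A3 above all.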
